A study of Oryza sativa with 8 samples.

Results

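The outer 2 Mb at both ends of each of the 12 rice chromosomes were examined in Hi-C data from a japonica rice cultivar, Nipponbare (Nip), and an indica cultivar, 93-11. Members were chosen by position alone. A 50-kb bin belonged to a chromosome end if it lay within 2 Mb of either tip, with the last coordinate of the chromosome's bins taken as the far tip. This gave 24 ends per cultivar with a combined length of 48 Mb, 960 of 7468 bins in Nip and 960 of 7763 bins in 93-11. A topologically associating domain (TAD) belonged to an end if its midpoint did, and the ends held 1104 of 8767 to 1433 of 11911 TADs per library in Nip, and 1040 of 8317 to 1416 of 11712 in 93-11. Each end is named below by its chromosome, as the start (low coordinates) or the far end (high coordinates), and coordinates are those of the deposited lists, whose genome build was not given in the sources used here.

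The 4 groups were Nip normal, Nip HS, 93-11 normal and 93-11 HS, with 2 libraries each, from the aerial parts of 3-week-old seedlings. HS (heat stress) was 45 °C for 36 h under high humidity and low light, a lower light than that of growth. Whether normal seedlings stayed in the growth light during those hours, and at which humidity, was not given, so heat cannot be told apart from light and humidity. The study calls the replicates biological, but the sources do not say which plants went into each, so the p-values below measure only the spread between these libraries. Aerial parts mix leaf and stem cells, and a change of structure inside cells cannot be told apart from a change in the mix of cells.

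In interphase nuclei, chromatin separates into an A compartment, which is gene-rich and open, and a B compartment, which is gene-poor and closed. On a finer scale it folds into TADs, stretches whose inner contacts outnumber those across their borders. In rice, genes are dense towards the chromosome ends and repeats are dense around the centromeres. The short arms of chromosomes 4 and 10 are known to be largely heterochromatic, and the nucleolar organiser, with its tandem ribosomal RNA genes, lies on the short arm of chromosome 9. The chromosome tips carry telomere repeats.

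Compartments are given as PC1, the first principal component of the contacts between bins. PC1 is computed for each chromosome separately and its scale is that of a unit vector, so a value has no physical unit and is read within a chromosome. A bin is A where PC1 is above 0 and B otherwise. The sign of PC1 is set with the gene annotation, so that gene-rich bins come out as A is in part built into the score. Only bins scored in all 4 libraries of a cultivar were used, 827 of 960 end bins in Nip and 870 of 960 in 93-11. Bins without a score made up 13.9% of the ends and 4.53% of the remaining bins in Nip, and 9.38% and 5.23% in 93-11. They crowded at the tips: of the 60 bins that reached into the outer 100 kb, 45 in Nip and 37 in 93-11 had no score. Sequencing depth was not used here, so TAD numbers were compared without regard to it. Replicates of HS libraries shared fewer TADs than replicates of normal libraries, as given below for the ends.

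The ends were mostly A compartment, in every library and under both conditions. In Nip, the share of A bins at the ends was 82.5% and 82.3% in the normal libraries and 82.3% and 82.7% in the HS libraries. In 93-11 it was 81.5% and 81.8% in normal and 82.4% and 83.1% in HS. In the rest of the chromosomes the normal mean was 45.5% ± 0.159 (SD, n = 2) in Nip and 44.4% ± 0.285 in 93-11. The ends thus exceeded the rest by 36.7 to 37.7 percentage points in 8 of 8 libraries, with a mean of 37 (two-sided exact sign-flip permutation test, p = 0.0078, the smallest that 8 libraries allow). These libraries repeat the measurement on only 2 genomes, so the test speaks to the repeatability of the difference and not to other genomes. Mean PC1 was likewise higher at the ends, by 0.0337 on average (exact permutation p = 0.0078), and it was higher at the ends on 12 of 12 chromosomes in each library.

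**Figure D1:**
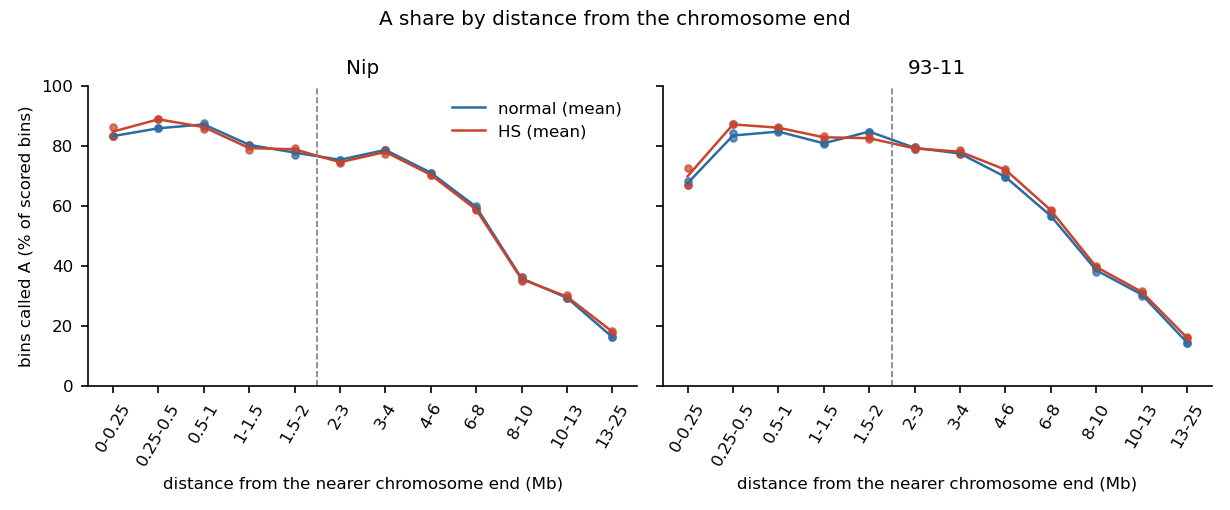
Percentage of scored 50-kb bins in the A compartment (vertical axis) against the distance from the nearest chromosome end in Mb (horizontal axis), in Nip and in 93-11. Lines are the means of the normal and of the HS libraries, and points are single libraries. The share is above 75% in most zones of the outer 4 Mb and falls to 16.3% (Nip) and 14.5% (93-11) in normal libraries beyond 13 Mb, while the normal and HS lines of a cultivar nearly coincide.

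From 2 to 3 Mb the A share was lower than from 1.5 to 2 Mb in both cultivars, and in normal libraries more so in 93-11. In normal libraries it was highest from 0.5 to 1 Mb in Nip, and from 0.5 to 1 Mb and 1.5 to 2 Mb in 93-11. In HS libraries it was highest from 0.25 to 0.5 Mb, at 88.9% in Nip and 87.2% in 93-11. It was lower in the zones beyond 4 Mb under both conditions. In normal libraries of Nip it was 83.3% within 0.25 Mb of the tip, 87.2% from 0.5 to 1 Mb, 77.8% from 1.5 to 2 Mb, 75.4% from 2 to 3 Mb and 35.9% from 8 to 10 Mb. In 93-11 the outermost 0.25 Mb was lower, at 67.6% ± 0.804 (SD, n = 2), against 84.8% from 0.5 to 1 Mb 84.8% from 1.5 to 2 Mb and 79.4% from 2 to 3 Mb. The outermost zone therefore had fewer A bins than the next zones in 93-11. Compared with the neighbouring 2 to 4 Mb, the ends had a higher A share by 2.74 to 6.68 percentage points in 8 of 8 libraries, with a mean of 4.53 (exact permutation p = 0.0078).

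Genes were denser at the ends. A bin held 6.8 genes on average at the Nip ends and 5.31 in the rest, and 6.92 and 4.99 in 93-11, and the neighbouring 2 Mb held 6.53 and 6.48. The ends made up 12.9% of the length and 15.9% of the genes in Nip, and 12.4% and 16.4% in 93-11. The difference in A share was also present among bins with similar numbers of genes. Among bins with 6 to 9 genes, 90.3% ± 0.148 of the end bins were A in normal Nip libraries against 64.2% ± 0.452 in the rest, and 91.3% ± 0.155 against 66.1% ± 0.116 in 93-11 (SD, n = 2). Among bins with 0 to 2 genes, the shares were 28.4% and 5.14% in Nip and 17.3% and 4.98% in 93-11. Among bins with 3 to 5 genes they were 62% and 33.9% in Nip and 62.2% and 33.6% in 93-11. Within each of these ranges of gene number, the ends exceeded the rest by more than the spread between replicates, although gene numbers can still differ inside a range. The neighbouring 2 Mb were close to the ends for bins with 6 to 9 genes, at 87.2% in Nip and 89.3% in 93-11. They were slightly above the ends for bins with 3 to 5 genes, at 63.9% and 64.3%. For bins with 0 to 2 genes they were below the ends and nearer to the rest, at 7.27% and 10.4%.

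The 24 ends were not alike, and their order was similar in both cultivars. As a unit vector has larger values on a chromosome with fewer bins, the order of the deposited scores is given first and then the order after division by the SD of PC1 over the chromosome, a scale added after seeing the data. In Nip, the highest mean PC1 was found at the far end of chromosome 10, with 0.0561 and 0.0557 in the normal libraries and 0.0586 and 0.0587 in the HS libraries. The far end of chromosome 9 followed with 0.053 and 0.0524 in normal and 0.0546 and 0.054 in HS, and then the start of chromosome 12 with 0.0504 and 0.0503 in normal and 0.0518 and 0.0526 in HS. Every scored bin of these 3 ends was A in all 4 libraries. The same 3 ends led in 93-11, where normal means were 0.0517 ± 0.000149 (SD, n = 2) at the far end of chromosome 10, 0.0517 ± 0.000293 at the start of chromosome 12 and 0.0463 ± 0.000354 at the far end of chromosome 9. The first and second of these did not differ beyond their spread. In SD units the leading ends were others. In Nip they were the far ends of chromosomes 2 and 1, both at 1.22, and the far end of chromosome 10 at 1.18. In 93-11 they were the far end of chromosome 1 at 1.22 and the starts of chromosomes 3 and 12, both at 1.15.

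At the bottom stood the starts of chromosomes 9, 4 and 10, in both cultivars and on both scales, with -0.849, -0.552 and -0.175 SD units in Nip and -0.693, -0.413 and -0.376 in 93-11. The start of chromosome 9 was the lowest, at -0.041 and -0.0403 in normal and -0.0335 and -0.036 in Nip HS libraries, and at -0.0331 and -0.0315 in normal and -0.0247 and -0.026 in 93-11 HS libraries. It had no A bin in any Nip library and 2.7% to 10.8% in 93-11, and it held the fewest genes, 3.3 and 3.17 per bin. The start of chromosome 4 had 21.1% to 36.8% A bins in Nip and 28.9% to 44.7% in 93-11. The start of chromosome 10 had 43.6% to 51.3% and 31.6% to 39.5%. These were the 3 ends of 24 with under 50% A bins in both normal libraries of each cultivar. They were also the 3 ends with a mean PC1 below 0 in all 4 libraries. The far end of chromosome 11 was mixed, with a normal mean PC1 of 0.00461 ± 0.000456 in Nip and 0.00566 ± 0.000363 in 93-11 and 56.5% and 56.8% A bins.

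**Figure D2:**
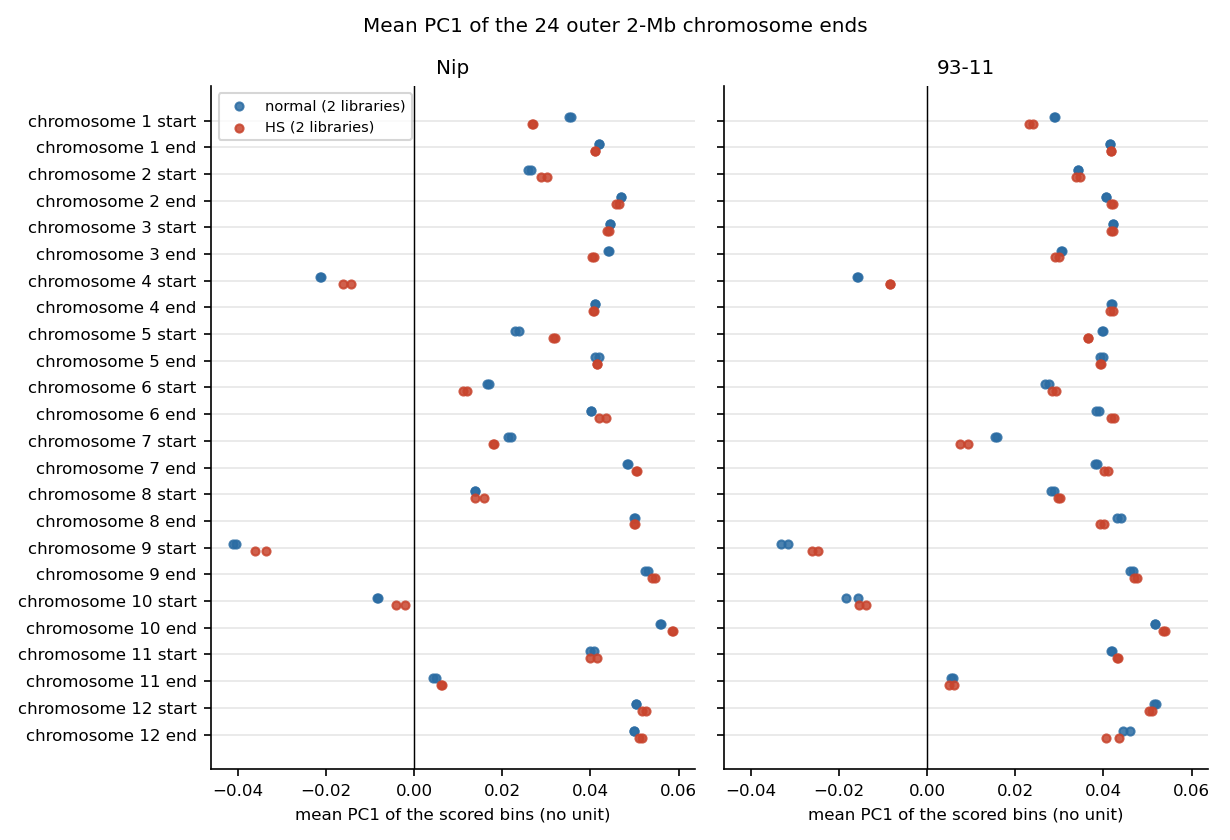
Mean PC1 (horizontal axis, unit-vector score without physical unit) of each of the 24 chromosome ends (vertical axis) in Nip and 93-11, with a point per normal or HS library. The starts of chromosomes 4, 9 and 10 lie below 0 in all 4 libraries of each cultivar, and the far end of chromosome 10 is the highest in Nip (0.0559 in normal), while in 93-11 it and the start of chromosome 12 are both at 0.0517.

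Over the 24 ends, normal mean PC1 in Nip and 93-11 had a Pearson's r of 0.952, and of 0.95 in SD units. This is a description, since the cultivars share most of their genome and the orientation rule of PC1. Ends with every scored bin A in both normal libraries numbered 13 of 24 in Nip and 5 of 24 in 93-11, and 15 of 24 exceeded 90% in each cultivar. Far ends were A in 95.6% of scored bins in normal Nip libraries and starts in 69.6%, and in 93-11 the shares were 91.4% and 71.8%.

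Several far ends belonged to A blocks that ran well beyond 2 Mb. Runs were followed over scored bins only, from the outermost scored bin inwards, with unscored bins passed over. In Nip, the A run at the far end of chromosome 2 began 114 kb from the tip. It reached 10.8 Mb from the tip in both normal libraries and 10.8 and 9.16 Mb in HS. The run at the far end of chromosome 9 began 190 kb from the tip and reached 8.44 Mb in normal and 8.24 Mb in HS. The run at the start of chromosome 1 changed most in length: it reached 7.95 Mb in both normal libraries and 0.9 and 1.25 Mb in HS. A few interrupting bins can shorten such a run, and the A share of that end was 100% in normal and 94.1% in both HS libraries. At other ends the outermost scored bins were B, a short cap before the A block. In 93-11 the cap reached 0.425 Mb from the tip at the far end of chromosome 3 and 0.293 Mb at the far end of chromosome 5, in all 4 libraries. The outer 124 and 143 kb of these had no score. In Nip the cap reached 0.208 Mb at the far end of chromosome 5 and 0.35 Mb at the start of chromosome 6, also in all 4 libraries. There the outer 108 and 100 kb had no score.

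HS left the compartments of the ends largely in place. The A share differed between HS and normal by 0.121 percentage points in Nip (exact permutation p = 1) and by 1.09 in 93-11 (p = 0.333, the smallest that 2 against 2 libraries allow). Over both cultivars the difference was 0.606 (exact permutation over 36 relabellings, p = 0.167). Its direction was not settled. After the median PC1 of each chromosome was subtracted, it was -0.363 in Nip and -1.49 in 93-11, and without Nip HS replicate 2 the difference in Nip was -0.0605. The gap in mean PC1 between ends and rest went from 0.0335 to 0.0343 in Nip and from 0.0338 to 0.0331 in 93-11, and over both cultivars the change was 6.62e-05 (exact permutation p = 0.722).

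Few end bins changed compartment. A bin switched if both normal libraries shared a call and both HS libraries shared the opposite call. In Nip, 3 of 827 end bins switched from A to B, 0.363% against 1.04% of all scored bins, and 5 switched from B to A, 0.605% against 1.05%. In 93-11, 6 of 870 end bins switched from A to B, 0.69% against 0.793%, and 12 from B to A, 1.38% against 1.71%. The shares at the ends were thus at or below those of the whole genome, and with so few bins their order carries little weight. Of the end bins that were B in both normal libraries, 3.57% in Nip and 7.89% in 93-11 switched to A, against 2.08% and 3.21% in the rest. Of those that were A, 0.444% and 0.853% switched to B, against 2.53% and 1.86%. With calls made from mean PC1 of both replicates, the shares at the ends were 1.45% in each direction in Nip, against 2.07% (A to B) and 2% (B to A) of all scored bins, and 1.61% and 2.53% in 93-11, against 1.6% and 3.02%.

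All switches at the ends were single bins except 1 run of 100 kb in 93-11. That run lay at the start of chromosome 10, from 100001 to 200000, held 6 genes and went from -0.0275 and -0.0165 in normal to 0.027 and 0.015 in HS. The next 3 switches from B to A in 93-11 by size of change were at chromosome 9 from 1450001 to 1500000 (-0.029 and -0.02 to 0.026 and 0.034), chromosome 8 from 1150001 to 1200000 (-0.01 and -0.014 to 0.025 and 0.016) and chromosome 10 from 1350001 to 1400000 (-0.02 and -0.009 to 0.019 and 0.015). All 4 lay at chromosome starts. In the other direction, the bin of chromosome 7 from 1600001 to 1650000, with 14 genes, went from 0.019 and 0.031 to -0.018 and -0.022. At the far end of chromosome 11, the bin from 30250001 to 30300000 went from 0.039 and 0.036 to -0.001 and -0.002, which is barely B. At the far end of chromosome 8, the bin from 29100001 to 29150000, only 133 kb from the tip and with 10 genes, went from 0.015 and 0.01 to -0.022 and -0.026. The fourth was at the start of chromosome 10, from 1800001 to 1850000, at 0.014 and 0.021 in normal and -0.021 and -0.014 in HS.

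In Nip, the largest switch from A to B was at the start of chromosome 8, from 850001 to 900000, from 0.025 and 0.029 in normal to -0.014 and -0.005 in HS. The others were at the start of chromosome 1 from 1250001 to 1300000 (0.02 and 0.028 to -0.001 and 0) and at the far end of chromosome 11 from 27100001 to 27150000 (0.005 and 0.023 to -0.001 and -0.006), both ending near 0. From B to A, the start of chromosome 5 held 2 bins. The bin from 1550001 to 1600000 went from -0.004 and -0.003 to 0.034 and 0.026, and the bin from 1750001 to 1800000 from -0.019 and -0.02 to 0.009 and 0.014. At the start of chromosome 10 the bin from 400001 to 450000 went from -0.022 in both normal libraries to 0.019 and 0.004, and at the far end of chromosome 6 the bin from 29200001 to 29250000 from -0.018 and -0.019 to 0.008 and 0.011. In both cultivars the starts of chromosomes 4 and 10 held bins that switched from B to A. The start of chromosome 1 and the far end of chromosome 11 held bins that switched from A to B in both. In 93-11 the start of chromosome 10 and the far end of chromosome 11 also held switches the other way. At the start of chromosome 8 the cultivars switched in opposite directions. The coordinates of the cultivars are not aligned.

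Single bins were tested for a difference in PC1 upon HS with limma, over all scored bins. At an adjusted p below 0.05, 19 of 827 end bins were higher in HS in Nip, 2.3% against 1.92% of all bins, and 21 were lower, 2.54% against 1.93%. In 93-11, 4 of 870 were higher, 0.46% against 1.91%, and 6 were lower, 0.69% against 0.834%. Shares at the ends were slightly above the background in Nip and below it in 93-11. These counts were unstable. With values as deposited, without random digits inside the rounding, they were 114 and 38 in Nip and 82 and 38 in 93-11. The higher calls were then 13.8% of the end bins against 7.22% of all bins in Nip and 9.43% against 8.5% in 93-11, and the lower calls 4.59% against 6.72% and 4.37% against 8.57%. In contrast, 0 bins were called in Nip without normal replicate 1, normal replicate 2 or HS replicate 1. The same held in 93-11 without normal replicate 1, normal replicate 2 or HS replicate 2. In these fits 0 bins were called over the whole genome too. Without HS replicate 1 of 93-11, 2 end bins were higher and 0 lower, against 59 and 17 over all bins.

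Several of the called bins with the largest differences lay at the same end. In Nip, 3 of the 5 largest rises lay at the start of chromosome 5, where the bin from 1700001 to 1750000 went from 0.001 in both normal libraries to 0.033 and 0.032 in HS (limma adjusted p = 0.035), beside the 2 switching bins (adjusted p = 0.047 and 0.04). The others were the switching bin of the far end of chromosome 6 (adjusted p = 0.035) and the bin of the start of chromosome 10 from 1300001 to 1350000, which stayed B at -0.046 and -0.049 in normal and -0.02 and -0.021 in HS (adjusted p = 0.035). The 5 largest falls in Nip were the switching bin of chromosome 8 (adjusted p = 0.049) and bins of the far ends of chromosomes 11, 8, 5 and 3. Of these, the bin of chromosome 5 from 29550001 to 29600000 fell from 0.039 in both normal libraries to 0.01 and 0.007 (adjusted p = 0.035), and that of chromosome 3 from 36850001 to 36900000, 117 kb from the tip, from 0.042 and 0.044 to 0.018 and 0.02 (adjusted p = 0.036). The bin of chromosome 11 from 27500001 to 27550000 fell from 0.045 and 0.041 to 0.011 and 0.005 (adjusted p = 0.046), and that of chromosome 8 from 26350001 to 26400000 from 0.032 and 0.037 to 0.003 and -0.001 (adjusted p = 0.045).

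In 93-11 the 4 called rises lay at chromosome starts. The largest was the bin of chromosome 10 from 150001 to 200000, from -0.032 and -0.028 to 0.027 and 0.029 (limma adjusted p = 0.019), followed by the switching bin of chromosome 9 (adjusted p = 0.045). The bin of chromosome 9 from 400001 to 450000 stayed B, at -0.033 and -0.034 in normal and -0.017 and -0.016 in HS (adjusted p = 0.027), and that of chromosome 8 from 50001 to 100000 was A throughout, at 0.014 and 0.015 and then 0.025 and 0.027 (adjusted p = 0.048). The 2 largest falls were the switching bins of the far ends of chromosome 11 (adjusted p = 0.02) and chromosome 8 (adjusted p = 0.035). The next were small, between -0.0105 and -0.01, at the starts of chromosomes 1 and 5.

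Averaged over 2 Mb, replicates were close and shifts between conditions were clearer than in single bins. In Nip, both HS libraries were above both normal libraries at 12 ends and below them at 8, against 48.1% and 41.7% of all 2-Mb windows of the genome. In 93-11 they were above at 12 ends and below at 7, against 49.5% and 33%. The ends were thus no more often separated than windows elsewhere. A limma fit of mean PC1 over all 2-Mb windows, added after the bins had been examined, called 12 ends higher and 4 lower in Nip (35.8% and 30.5% of all windows), and 8 higher and 4 lower in 93-11 (33.5% and 20.1%). Without normal replicate 1 or 2, the higher calls in Nip were 6 and 5, and in 93-11 they were 4 without normal replicate 2, HS replicate 1 or HS replicate 2.

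**Figure D3:**
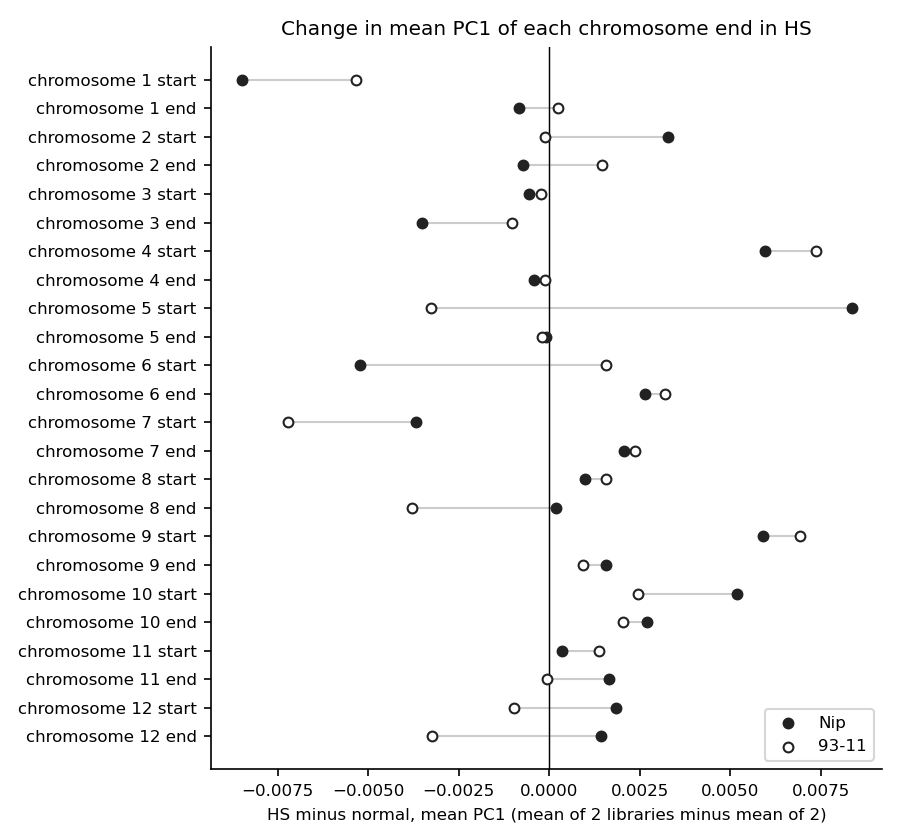
Difference in mean PC1 between HS and normal libraries (horizontal axis, score units) for each of the 24 chromosome ends (vertical axis) in Nip and 93-11, from the deposited scores. The starts of chromosomes 4 and 9 are higher in HS in both cultivars and the starts of chromosomes 1 and 7 lower, whereas the start of chromosome 5 differs in sign (0.00835 in Nip and -0.00326 in 93-11); centring on the chromosome median changes the sign at some ends, among them the starts of chromosomes 4 and 9 in 93-11.

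These directions depended on the scale. The median PC1 of a chromosome was itself higher in HS on 9 of 12 chromosomes in Nip (from -0.0015 to 0.00875) and on 12 of 12 in 93-11 (0.001 to 0.011). With that median subtracted, the sign was the other for 5 of the 20 separated ends in Nip and 12 of the 19 in 93-11. Both HS libraries were then above both normal libraries at 7 ends and below at 11 in Nip, and at 0 and 20 ends in 93-11. Division by the SD of the chromosome changed no sign among these separated ends. Only the ends that separated in the same direction on all 3 scales are therefore given a direction here. Lower in HS in both cultivars were the start of chromosome 1, the far end of chromosome 3 and the start of chromosome 7. With 0 ends of 93-11 higher on the centred scale, none could be higher in both under this rule. As deposited and in SD units, 7 ends were higher in both cultivars and these 3 lower.

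Of these 3 ends, the start of chromosome 1 had the largest difference in Nip and the start of chromosome 7 in 93-11. At the start of chromosome 1, mean PC1 was 0.0351 and 0.0355 in normal and 0.0269 and 0.0267 in Nip HS libraries (limma adjusted p = 0.00017), and 0.0291 and 0.0287 in normal and 0.0231 and 0.024 in 93-11 HS libraries (adjusted p = 0.0011). The start of chromosome 7 went from 0.0212 and 0.022 to 0.0181 and 0.0178 in Nip (adjusted p = 0.0015), and from 0.0159 and 0.0154 to 0.00937 and 0.0075 in 93-11 (adjusted p = 0.0015). The far end of chromosome 3 went from 0.044 and 0.0442 to 0.0403 and 0.0409 in Nip (adjusted p = 0.0013), and from 0.0306 and 0.0304 to 0.0299 and 0.029 in 93-11, which limma did not call (adjusted p = 0.096). All 3 stayed A on average. In Nip, 6 ends were higher on all 3 scales, among them the B-type starts of chromosomes 9 and 10. For the start of chromosome 9 the deposited scores gave 0.00591 in Nip (adjusted p = 0.0035) and 0.00692 in 93-11 (adjusted p = 0.0019), but centred scores gave 0.00641 and -0.00383. The start of chromosome 4 gave 0.00596 (adjusted p = 0.0013) and 0.00737 (adjusted p = 3e-04) as deposited, and -0.00154 and -0.00363 when centred, so no direction is given for it.

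TADs at the ends were more numerous and smaller in both HS libraries than in both normal libraries of each cultivar, as they were elsewhere. In Nip, the ends held 1104 and 1145 TADs in normal and 1401 and 1433 in HS libraries. In 93-11 they held 1059 and 1040 in normal and 1383 and 1416 in HS. The groups did not overlap in either cultivar. Density was 23.4 ± 0.604 TADs per Mb in normal and 29.5 ± 0.471 in HS in Nip, a ratio of 1.26, and 21.9 ± 0.28 and 29.2 ± 0.486 in 93-11, a ratio of 1.33 (SD, n = 2). Over both cultivars the difference was 6.69 per Mb (exact permutation p = 0.0556, the smallest that 36 relabellings allow). In the rest of the chromosomes the ratios were 1.34 and 1.39.

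The excess of TADs in HS was thus smaller at the ends than in the rest, in both cultivars. It was uneven within the 2 Mb. In the outer 250 kb mean density went from 21.1 to 16 per Mb in Nip and from 21.6 to 24.1 in 93-11. From 0.25 to 0.5 Mb it went from 24.8 to 32.1 and from 21.6 to 31.8, and in the rest from 23.4 to 31.3 and from 21.7 to 30.2. The difference in density between ends and rest was 0.017 in normal and -1.78 in Nip HS libraries, and 0.17 and -1.09 in 93-11, a change of -1.53 over both cultivars (exact permutation p = 0.0556, the smallest possible). Averaged over conditions, ends minus rest was -0.671 per Mb and below 0 in 5 of 8 libraries (exact sign-flip permutation p = 0.109). Counted as outermost TADs only, those inside no other TAD, the ends were denser than the rest in 8 of 8 libraries, by 0.573 per Mb (exact permutation p = 0.0078). Nesting was shallower at the ends: the mean level of ends minus rest was -0.0947, and it was below 0 in 8 of 8 libraries (exact permutation p = 0.0078), with level 0 for an outermost TAD. TADs at level 3 or deeper made up 11.8% ± 1.96 of end TADs in normal and 3.95% ± 0.137 in HS in Nip, and 10.4% ± 1.15 and 4.93% ± 0.423 in 93-11. In the rest they went from 13.5% to 5.09% and from 14.5% to 6.2%.

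The median TAD at the ends was 65 kb in both normal libraries and 40 kb in both Nip HS libraries, and 70 and 75 kb in normal and 45 kb in both 93-11 HS libraries. Over both cultivars it was smaller in HS by 26.2 kb (exact permutation p = 0.0556, the smallest possible). TADs of at most 40 kb made up 28% of end TADs in normal and 52.1% in HS in Nip, and 21.6% and 46.7% in 93-11. In the rest the shares were 25.6% and 51.3% in Nip and 22.4% and 46% in 93-11. Median sizes at the ends and in the rest differed by 1.25 kb (exact permutation p = 0.5), less than the 5-kb step of the lists. Mean sizes were smaller at the ends by 1.06 to 10.3 kb in 8 of 8 libraries, with a mean difference of -4.55 kb (exact permutation p = 0.0078). Under normal conditions, the median TAD in stable B bins of the ends was larger than that in stable A bins in Nip, at 82.5 ± 3.54 kb against 60 ± 0 kb. In 93-11 the medians, 80 ± 14.1 and 67.5 ± 3.54 kb, did not differ beyond their spread (SD, n = 2). In HS, the medians of both were 40 kb in Nip, and 51.2 kb in B and 45 kb in A in 93-11.

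**Figure D4:**
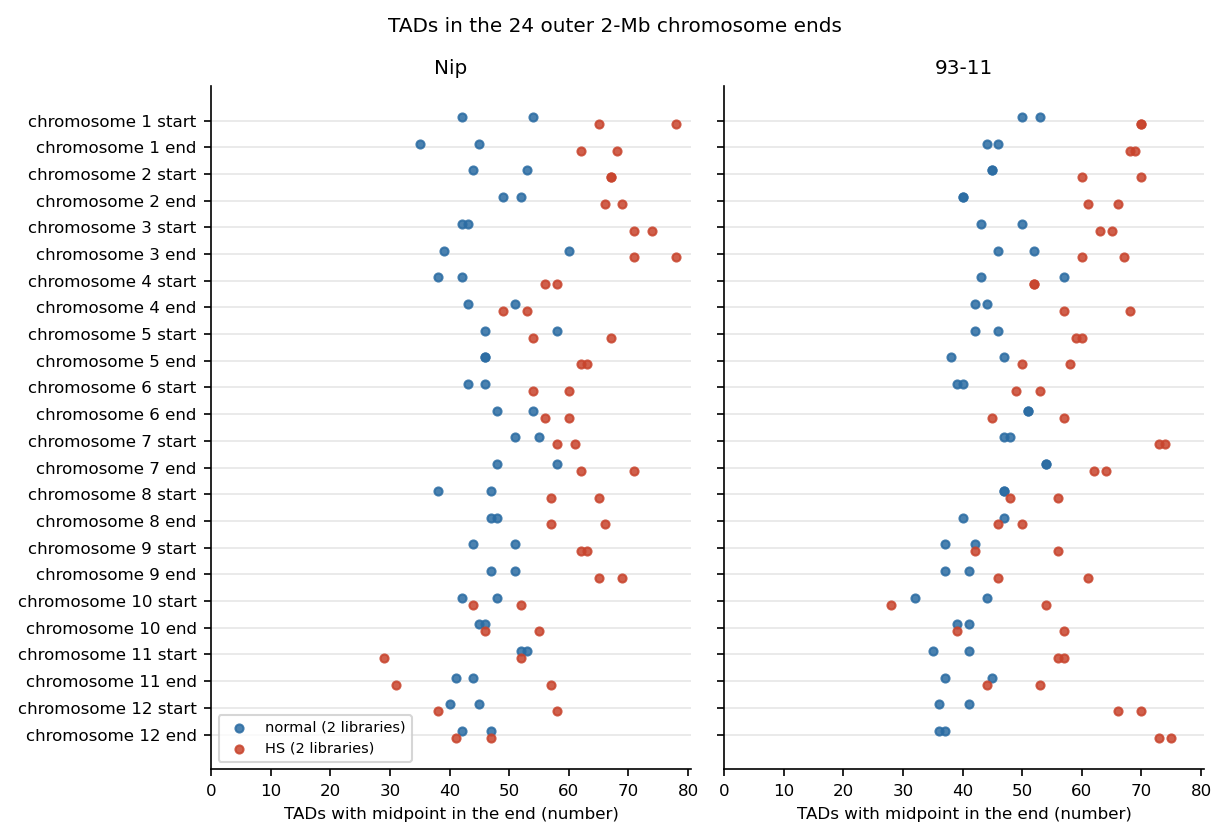
Number of TADs (horizontal axis) with midpoint in each of the 24 chromosome ends (vertical axis) in Nip and 93-11, with a point per normal or HS library. Both HS libraries exceed both normal libraries at 16 ends in Nip and 17 in 93-11, and Nip HS replicate 1 is low on chromosomes 11 and 12.

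Both HS libraries had more TADs than both normal libraries at 16 of 24 ends in Nip, against 80.3% of all 2-Mb windows, and at 17 of 24 in 93-11, against 78.2%, and 0 ends had fewer. The largest difference in Nip was at the start of chromosome 3, with 42 and 43 TADs in normal and 71 and 74 in HS. The far end of chromosome 1 went from 35 and 45 to 68 and 62, and the far end of chromosome 3 from 39 and 60 to 71 and 78. In 93-11 the largest difference was at the far end of chromosome 12, from 37 and 36 to 73 and 75, a ratio of 2.03. The start of the same chromosome went from 36 and 41 to 70 and 66, and the start of chromosome 7 from 48 and 47 to 73 and 74. The difference on chromosome 12 of 93-11 was not particular to its ends, since the ratio of HS to normal was 1.89 at its ends and 2.02 in its remainder.

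At some ends 1 HS library stood apart, and others changed little. In Nip, the start of chromosome 11 had 53 and 52 TADs in normal and 29 and 52 in HS, its far end 41 and 44 in normal and 31 and 57 in HS, and the far end of chromosome 12 had 42 and 47 in normal and 41 and 47 in HS. Nip HS replicate 1 was low on chromosome 11 beyond the ends too, with 18.4 TADs per Mb against 33.2 in replicate 2. In 93-11, the far end of chromosome 6 had 51 TADs in both normal libraries and 57 and 45 in HS, the start of chromosome 4 had 57 and 43 in normal and 52 in both HS libraries, and the start of chromosome 10 had 32 and 44 in normal and 28 and 54 in HS. HS replicate 1 of 93-11 was likewise low in the rest of chromosome 10, at 14.6 against 26.1 per Mb in replicate 2. Across the 12 chromosomes, the ratio of HS to normal at the ends and that in the rest had an r of 0.56 in Nip and 0.851 in 93-11, as a description, since both come from the same libraries. The ratio was smaller at the ends on 8 of 12 chromosomes in Nip and 9 of 12 in 93-11.

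The ends differed from the rest in how much of them any TAD covered, and this difference was larger in both HS libraries of each cultivar. Outermost TADs covered 96.8% and 97.3% of the ends in normal and 83.6% and 86% in Nip HS libraries. In 93-11 the shares were 97.3% and 97.1% in normal and 88.6% and 88.4% in HS. The rest of the chromosomes went from 98.1% to 89.5% in Nip and from 97.9% to 91.3% in 93-11. Coverage was lower at the ends than in the rest in 8 of 8 libraries, by 2.32 percentage points on average (exact sign-flip permutation p = 0.0078). Ends minus rest went from -1.06 ± 0.163 to -4.71 ± 1.19 in Nip and from -0.744 ± 0.00716 to -2.79 ± 0.351 in 93-11 (SD, n = 2), by -2.85 over both cultivars (exact permutation p = 0.0556, the smallest possible).

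The excess of this difference over that of the rest lay in the outer 250 kb, while further in coverage was lower in HS by about as much as in the rest. In the outer 250 kb, TADs covered 87% and 89.4% in normal and 42.6% and 52.7% in Nip HS libraries, and 89.8% and 88.6% in normal and 68.6% and 66.9% in 93-11 HS libraries. HS minus normal was -40.6 percentage points in Nip and -21.5 in 93-11. Relative to the rest of the chromosomes it was -23.4 over both cultivars (exact permutation p = 0.0556, the smallest possible). From 0.25 to 0.5 Mb the HS coverage was 90.4% ± 1.25 in Nip and 91.9% ± 0.745 in 93-11, close to the 89.6% ± 0.62 and 91.2% ± 0.177 of the neighbouring 2 to 4 Mb. Without the outer 250 kb, a limit chosen after seeing the data, coverage at the ends exceeded that of the rest by 0.344 percentage points (exact permutation p = 0.0234), so the deficit was not found further in. Density in that zone went from 21.8 and 20.3 to 14 and 18 TADs per Mb in Nip and from 23.3 and 19.8 to 23 and 25.2 in 93-11. The outer zone was therefore the only distance zone examined in which Nip had fewer TADs in HS, whereas from 0.25 to 0.5 Mb density went from 24.8 to 32.1 in Nip and from 21.6 to 31.8 in 93-11.

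**Figure D5:**
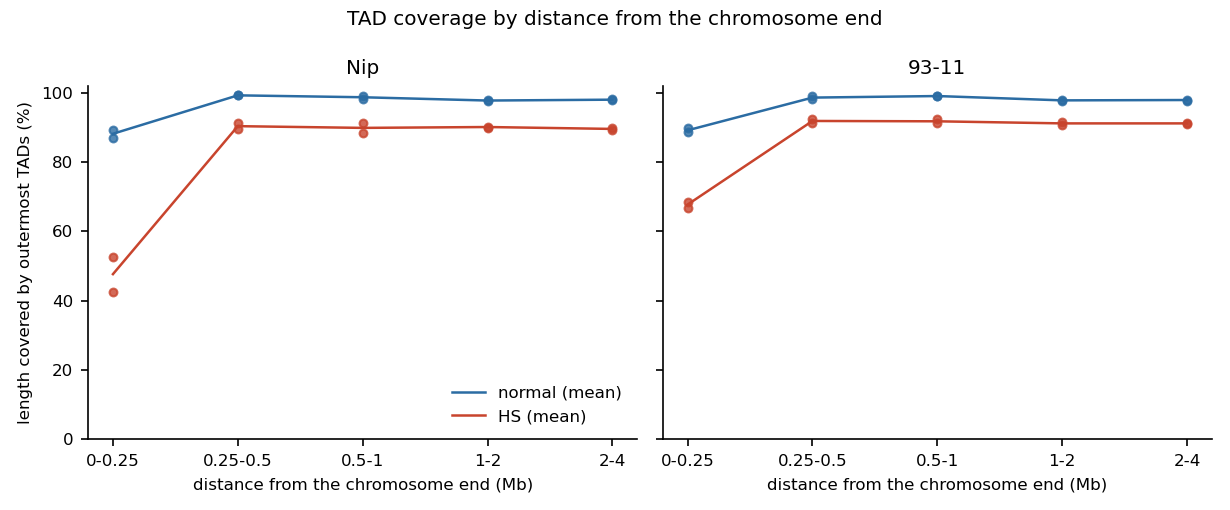
Percentage of sequence covered by outermost TADs (vertical axis) against distance from the chromosome end in Mb (horizontal axis) for each library of Nip and 93-11. In the outer 250 kb, HS libraries are at 42.6% and 52.7% in Nip and 68.6% and 66.9% in 93-11, while all HS values further in are near 90%.

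The stretch between the tip and the nearest TAD was longer in HS at most ends. Both HS libraries had a longer stretch than both normal libraries at 21 of 24 ends in Nip and 20 of 24 in 93-11, and 0 ends had a shorter one in both. The median over the ends was 15 kb in both normal libraries and 152 and 86.8 kb in Nip HS libraries, and 15 and 19.1 kb in normal and 59 and 51.3 kb in 93-11 HS libraries. At the far end of chromosome 4 in Nip it went from 15.3 and 10.3 kb to 260 and 175 kb. At the far end of chromosome 11 in Nip it went from 12.9 and 7.94 kb to 358 and 87.9 kb, with HS replicate 1 again apart. In 93-11 the start of chromosome 12 went from 30 kb in both normal libraries to 180 and 230 kb, and the start of chromosome 3 from 30 and 40 kb to 170 and 175 kb. The exceptions included the start of chromosome 1 in 93-11, at 20 kb in both normal libraries and 20 and 25 kb in HS. These ends were chosen after their values were seen.

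In the outer zone and in the rest, coverage in HS was lower in bins without a PC1 score than in scored bins. In the outer 250 kb of Nip, coverage went from 96.5% ± 0.857 to 68.3% ± 9.11 in the 66 scored bins and from 80.1% ± 4.37 to 29.4% ± 5.19 in the 66 unscored bins (SD, n = 2). In 93-11 it went from 97.5% ± 1.29 to 84.4% ± 2.41 in 88 scored bins and from 72.6% ± 5.37 to 33.2% ± 0.358 in 44 unscored bins. Scored bins in the rest went from 98.2% to 90% in Nip and from 98.1% to 92.3% in 93-11, and unscored bins there from 96.3% to 78.8% and from 94.4% to 73.3%. HS minus normal in scored bins was thus -28.3 and -13.1 percentage points in the outer zone against -8.17 and -5.84 in the rest of the chromosomes, so it was larger in the outer zone among scored bins too. From 0.25 to 2 Mb, scored bins went from 98.2% to 89.8% in Nip and from 98.2% to 91.7% in 93-11. The unscored bins of that zone, 67 and 46 in number, went from 99.6% to 93.5% and from 99.6% to 89.9%, so in Nip their difference was not the larger one there. Why bins lack a score is not given in the sources used here.

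Boundaries at the ends turned over about as often as elsewhere. A boundary was lost if both normal libraries had it and neither HS library did, within 5 kb. At the ends, 93 of 595 boundaries shared by the normal libraries of Nip were lost, 15.6% against 13.7% over the genome, and 101 of 511 in 93-11, 19.8% against 19%. Gained boundaries were 231 of 709 in Nip, 32.6% against 34.7%, and 261 of 635 in 93-11, 41.1% against 41.7%. All of these are near the background, and in Nip the lost share was somewhat above it under each setting. They rest on the tolerance and on both HS libraries: at identical positions 44.9% and 52.3% were lost, against 42.6% and 51% over the genome, and within 10 kb 7.77% and 9.79%, against 5.78% and 8.97%. With a single HS library the lost shares were 29.7% and 35.6% in Nip, against 28.6% and 31.3% over the genome, and 38.7% and 40.5% in 93-11, against 38.7% and 39.6%.

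Normal replicates shared 54.2% of their end TADs in Nip and 50.6% in 93-11, with a reciprocal overlap of at least 80%. HS replicates shared 31.2% and 28.9%, and 30.8% and 28.5% of normal end TADs were found in HS libraries. HS libraries thus shared about as many TADs with each other as normal libraries shared with HS libraries. In the rest, the shares were 51.7% and 47.2% between normal replicates and 31.8% and 26% between HS replicates.

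The largest outermost TADs at the ends that both normal replicates shared held several outermost TADs in HS, and their sizes here are those of normal replicate 1. In Nip, the start of chromosome 9 held a 570-kb TAD from 415001 to 985000, in which all 11 scored bins were B and which held 52 genes. It held 1 outermost TAD in each normal library and 6 and 5 in HS. The far end of chromosome 9 held a 555-kb TAD from 21280001 to 21835000 with 82 genes and 9 scored bins, all A, and it held 8 and 7 outermost TADs in HS. The largest outermost TAD found there in HS was 105 kb in both libraries. The 540-kb TAD at the far end of chromosome 11, from 27650001 to 28190000, had 6 stable B bins and 1 stable A bin and held 3 and 5 outermost TADs in HS. A B-type and an A-type stretch on the same chromosome thus both held more outermost TADs in the HS lists than in the normal lists.

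In 93-11, the largest was a 505-kb TAD at the start of chromosome 4, from 355001 to 860000, with 44 genes and 7 stable A bins of 8, although the end as a whole was mostly B. It held 1 outermost TAD in each normal library and 5 and 2 in HS. The 490-kb TAD at the far end of chromosome 7, from 29305001 to 29795000, with 10 A bins of 10 and 68 genes, held 1 and 2 outermost TADs in normal and 4 and 10 in HS. The 485-kb TAD at the far end of chromosome 9, from 23525001 to 24010000, with 10 A bins of 10 and 88 genes, held 1 in each normal library and 6 and 2 in HS. All 6 of these TADs, chosen as the largest in normal libraries, held more outermost TADs in both HS libraries than in both normal libraries. Since large TADs were selected, some loss of size on remeasurement is built in, and no test is given.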

How the data were processed

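Hi-C contacts had been processed per library by the authors before deposit. Per the labels, cutadapt 1.0, BWA and HiC-Pro 2.8.1 were used, whereas the study's methods name Bowtie2 and HiCExplorer, and the genome build and annotation were not given in the sources used here. The deposited compartment score is PC1 per 50-kb bin, rounded to 3 decimals, with a gene number per bin. The methods describe PC1 of wider bins, and which tool made these scores is not settled. The deposited TAD lists give start, end and nesting level at 5-kb steps, and the methods describe a caller without nesting. No pooled lists, counts or depths were used.

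Ends, rest and the neighbouring 2 to 4 Mb were summarised per library with Python 3.11.15 and compared by exact permutation over libraries. Samples were grouped from GEO's labels. Smallest two-sided p-values were 0.333 for 2 against 2 libraries, 0.0556 for 36 relabellings within both cultivars, and 0.125 and 0.0078 for sign flips of 4 and 8. PC1 was tested with limma 3.58.1 (R 4.3.3) on all bins, after random digits had been added inside the rounding, and the median Benjamini-Hochberg adjusted p of 21 draws was used. Tested on simulated data, this recovered 99.5% of 200 bins changed by 0.03 among the 7040 bins of Nip and 100% among the 7317 of 93-11. Of the calls, 6.57% and 5.66% were false. Without random digits, 88% and 92% were recovered, with 1.68% and 0.541% of calls false. Simulated bins called were then fewer, 179 against 213 in Nip and 185 against 212 in 93-11. In the real data they were more: 508 higher and 473 lower in Nip, against 135 and 136 with random digits. For 93-11 they were 622 and 627, against 140 and 61. The simulation did not mimic the data in this, so its rates are not taken as those of the real calls. Called rises at the ends were as small as 0.008, and changes of bins smaller than 0.03 were not simulated. Regions named are the 3 highest and 3 lowest ends by normal PC1, up to 4 switching runs per direction ranked by length and change, up to 5 called bins per direction, the 3 largest outermost TADs shared by normal replicates, and the 3 largest and smallest changes in TAD number. Other ends named were chosen after their values were seen. Members, lists and rules were chosen with earlier results of these data known. Alternatives covered end width, scaling, weighting, call and TAD definitions, and libraries left out.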

Additional observations from a re-analysis of the deposited data

Results flagged for a closer look

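In 7 comparisons both HS libraries moved 1 way in Nip and the opposite way in 93-11. The difference between the cultivars was not tested in any of them. The gap in mean PC1 between ends and rest changed by 0.000791 in Nip and by -0.000659 in 93-11. At single ends, the change in mean PC1 was -0.000839 in Nip and 0.000237 in 93-11 at the far end of chromosome 1, and -0.000734 and 0.00146 at the far end of chromosome 2. It was 0.00835 and -0.00326 at the start of chromosome 5, and -0.00522 and 0.00158 at the start of chromosome 6. On chromosome 12 it was 0.00184 and -0.000966 at the start, and 0.00142 and -0.00324 at the far end. With PC1 centred on the chromosome median, libraries still separated in opposite directions at the far end of chromosome 12 (0.00192 and -0.00574). The starts of chromosomes 5 and 6 then had the same sign in both cultivars, at -0.000399 and -0.0128 and at -0.0115 and -0.00892. Of the 24 ends, 16 separated in both cultivars, 7 higher and 3 lower in both and 6 in opposite directions, as deposited. With PC1 centred, 15 separated in both cultivars, 0 higher and 10 lower in both and 5 in opposite directions. The 5 were the far end of chromosome 7, both ends of chromosome 9, the start of chromosome 10 and the far end of chromosome 12. Shares over all 2-Mb windows are not given for these joint counts, so they are not read as particular to the ends.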

How the results depend on the processing

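The 43 results were recomputed under 188 alternatives other than leaving out a library. The verdict was unchanged in 138, passed the threshold in 3, changed sign in 22 and moved in 25; of 208 that left out a library, 175 were unchanged, 1 changed sign and 32 moved. The cause was not tested unless stated. The change in the A share of the ends in Nip was -0.118 for the outer 3 Mb and -0.0164 with chromosomes weighted equally. On centred PC1 it was -0.363 in Nip, -1.49 in 93-11 and -0.929 over both, and without a library it ranged from -0.0605 to 0.302 in Nip. The change in PC1 of ends minus rest over both cultivars was -0.000113 for the outer 1 Mb, -0.000336 for the outer 3 Mb, -0.000214 centred, -9.01e-05 with chromosomes weighted equally, -6.61e-05 with bins scored in each library and -0.00127 in SD units.

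TAD density of ends minus rest was -1.61 for the outer 1 Mb (exact permutation p = 0.0078) and -1.07 for TADs wholly inside the end (exact permutation p = 0.0156), and for outermost TADs 0.562 in Nip, 0.585 in 93-11 and 0.573 over both. Median size of ends minus rest was 1.25 kb for the outer 1 Mb in Nip, in 93-11 and over both; against the neighbouring 2 Mb it was 1.25 in Nip and 0.625 over both, and the mean size gave -4.55. Coverage of ends minus rest without the outer 250 kb, added after seeing the data, was 0.401 in Nip, 0.288 in 93-11 and 0.344 over both.

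Replicate numbers did not pair the samples: deviations of same-numbered libraries correlated at 0.0182 in Nip and 0.0136 in 93-11. With the replicate block, limma called 0 bins in both directions and cultivars, at the ends and over all bins. In Nip, 248 of 827 end bins and 2034 of all 7040 then had an unadjusted p below 0.05. In 93-11 these were 179 of 870 and 1770 of 7317. End bins called higher and lower were 114 and 38 in Nip and 82 and 38 in 93-11 with values as deposited. Over all bins they were 508 and 473, and 622 and 627. After quantile normalization, 8 and 7 end bins were called in Nip, against 87 and 99 over all bins. Without a library the called end bins were 0 to 26 and 0 to 22 in Nip, and 0 to 2 and 0 to 0 in 93-11. Over all bins they were 0 to 284 and 0 to 235 in Nip, and 0 to 59 and 0 to 17 in 93-11. An unadjusted p below 0.05 was then found for 80 to 431 end bins and 916 to 3342 of all bins. Windows called higher were 6 in Nip after quantile normalization, and without a library 5 to 11 in Nip and 4 to 6 in 93-11.

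Switching from A to B at the ends was 0.629% for the outer 3 Mb, 1.45% from mean PC1 and 0.726% centred in Nip, and 0.243% for the outer 1 Mb, 1.61% from mean PC1 and 1.61% centred in 93-11. From B to A it was 1.45% from mean PC1 in Nip, and 2.53% from mean PC1 and 0.575% centred in 93-11. Without a library the ranges were 0.363 to 1.33% and 0.846 to 1.33% in Nip, and 0.92 to 1.26% and 1.72 to 2.3% in 93-11, where fewer libraries must agree. Lost boundaries were 44.9% at the same position and 7.77% within 10 kb in Nip, and 52.3% and 9.79% in 93-11; gained boundaries were 56.5% at the same position in Nip. Without a library, 18.8 to 35.6% were lost in Nip and 23.4 to 40.5% in 93-11. Contact depth was not used, and its part in TAD numbers was not tested.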
